A study of Homo sapiens with 20 samples.

Results

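The probe sets of 10 amino acid carrier genes were followed in THLE-3 cells, a human liver epithelial line made immortal with the SV40 large T gene. The genes were SLC7A11, SLC7A1, SLC7A5, SLC7A6, SLC3A2, SLC38A1, SLC38A2, SLC1A4, SLC1A5 and SLC6A9. A probe set was a member where the platform annotation gave it 1 of these symbols and no other, which held for 22 of 22215 probe sets on the Affymetrix array. The array named 11963 genes in this way. Of the 22 probe sets, 20 passed a filter on low signal and were tested, and each of the 10 genes kept at least 1. The filter used the mean over all 20 arrays, so it favoured neither leucine level. Cells in 0.1 mM leucine (low) or 2.0 mM leucine (high) were taken at 0, 30, 60, 120 and 480 min, which gave 10 groups. Each group held 1 array of a first and 1 of a second experiment. The labels name no other treatment and do not say how cells were kept before 0 min or whether the experiments were separate cultures, so the p-values speak only for the spread among these arrays, which may be technical. Mean intensity per array ran from 761.8 to 862.6 arbitrary units, and the number of arrays limits the precision.

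Amino acid carriers of the plasma membrane work as exchangers, as sodium-driven pumps or as passive routes, and together they set which amino acids a cell can take up. SLC3A2 (also called 4F2hc or CD98) is a glycoprotein heavy chain that carries light chains of the SLC7 family to the cell surface, among them SLC7A5, SLC7A6 and SLC7A11. SLC7A5 brings in leucine and other large neutral amino acids in exchange for intracellular glutamine, and SLC1A5 and the SLC38 carriers are routes for that glutamine. When amino acids are scarce, the kinase GCN2 raises translation of the transcription factor ATF4, and several of these carriers are known ATF4 targets.

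Markers of liver cell types were read first, because the line is named for liver epithelium. Of 12 hepatocyte markers 11 were on the array, and 6 of these passed the filter on low signal. Above the 90th percentile of mean signal lay 0 of them. CYP3A4 was highest at percentile 89.97, APOA1 was at 67.1, and ALB, serum albumin, was at 9.92. Of 7 biliary and epithelial markers 4 lay above the 90th percentile, all keratins. EPCAM, SOX9 and CDH1 lay at percentiles 10.8, 24.3 and 7.31 and failed the filter. Of 7 mesenchymal markers 4 lay above the 90th percentile. Of 5 endothelial and blood markers on the array 0 did. At 480 min the summed intensity of the hepatocyte list was 5118 to 5331 in low and 4815 to 5039.9 in high leucine, that of the epithelial list 13712 to 27595 and 15169 to 29055, that of the mesenchymal list 18693 to 20793 and 18841 to 22328, and that of the endothelial and blood list 1744 to 1978 and 1693 to 1919. The part of these levels in the results was not tested.

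Values below are deposited intensities unless a log2 change is named. Changes are differences of log2(value + 165.2) after quantile normalization, high minus low leucine, and ± is the standard error with n = 2 arrays per group. Because of the added constant, changes of weak probe sets are understated. Each change has 2 limma fits over all 20 arrays: one with a mean per group, called unblocked, and one that also holds a term for the experiment, called blocked. Both estimate the same change. A call is an adjusted p under 0.05 after Benjamini-Hochberg adjustment over 13329 probe sets. The lead probe set of a gene is the one with the highest mean, and levels of different probe sets are not compared, because probe affinity differs.

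**Figure D1:**
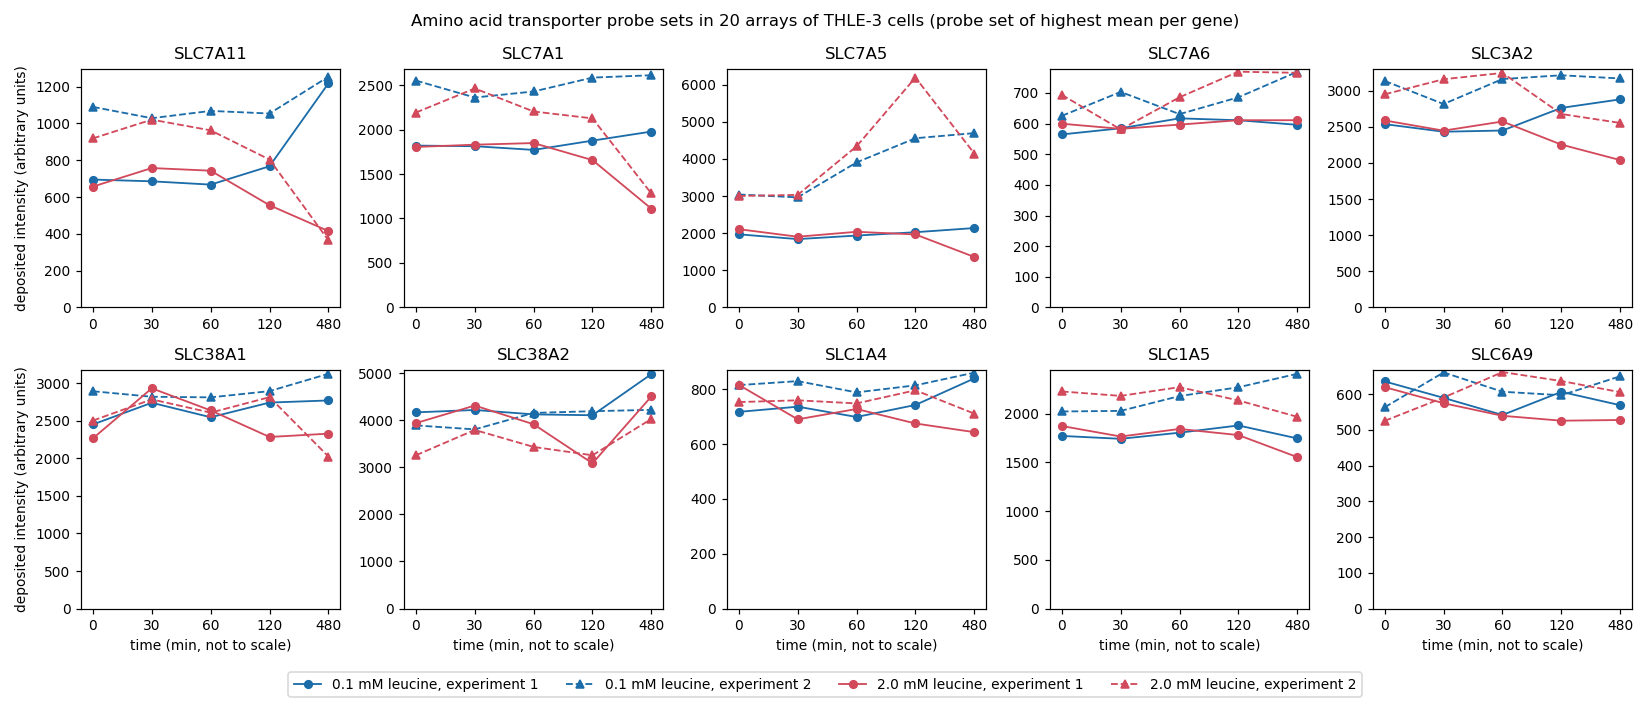
Deposited intensity (arbitrary units, linear axis from 0) against time (min, the 5 times evenly spaced and not to scale) for the lead probe set of each of the 10 genes, with 1 point per array. Colour gives the leucine level and marker the experiment. SLC7A11 and SLC7A1 part at 480 min in both experiments, and SLC7A5 climbs to 6190.3 in the second experiment while it stays at or under 2138 in the first.

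At 480 min SLC7A11 and SLC7A1 showed the largest leucine differences of the 10 genes, and smaller ones were called in SLC3A2, SLC38A1 and SLC1A4. The SLC7A5 lead had a difference about as large as that of SLC3A2, but it was not called. In each of the 5 called genes the lead probe set was lower in high leucine, as were 9 of the 10 leads in all. The unblocked fit called 2 of the 20 probe sets, both of SLC7A11 and both lower, where 0.27% of all probe sets were called. The blocked fit called 8 of 20, all lower, where 4.09% of all probe sets were called and 1.61% were called lower. Among all probe sets 0.158% were called lower in the unblocked fit. The median change over the 20 probe sets was -0.24, and it was -0.01 over all 13329. In intensity, low and high leucine did not overlap for 9 of 20 probe sets of 5 genes, all with low leucine above, against 11.8% of all probe sets in that direction. High leucine lay wholly above low leucine for 0 of 20, and for 13% of all probe sets. The members were chosen with earlier results of these data known, so their shares are not independent of that choice.

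SLC7A11, the cystine and glutamate exchanger whose imported cystine feeds glutathione synthesis, gave 1217 and 1253 in low leucine at 480 min and 415 and 365 in high leucine. Low exceeded high leucine 2.93-fold in the first and 3.43-fold in the second experiment on the deposited scale. The log2 change was -1.32 ± 0.22 in the unblocked limma fit (adjusted p = 0.035) and -1.32 ± 0.13 in the blocked fit (adjusted p = 3.1e-05). A second probe set, 217678_at, gave 934 and 909 against 310.2 and 283, a change of -1.22 ± 0.14 (unblocked limma, adjusted p = 0.011). Both probe sets therefore showed low leucine above high leucine in each experiment. The third, 207528_s_at, lay between 292 and 356 on all 20 arrays, fell below the filter and was not tested. Leaving out 1 array at a time, the unblocked call of the lead was lost in 9 of 20 fits and that of 217678_at in 3, with adjusted p of 0.34 and 0.15 without the second high leucine array at 480 min. No single array removed either blocked call.

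SLC7A1, which carries the cationic amino acids arginine, lysine and ornithine, gave 1977 and 2610.3 in low leucine at 480 min and 1110.3 and 1281 in high leucine. The 2 experiments differed in level, but low leucine lay above high leucine in both, by 1.78-fold and 2.04-fold. The change was -0.86 ± 0.06 in the blocked limma fit (adjusted p = 2.2e-06), and the unblocked fit did not call it (-0.86 ± 0.19, adjusted p = 0.11). Its 5 probe sets disagreed in size and in sign. Probe set 212290_at gave 825 and 1018 against 641 and 629 and was called in the blocked limma fit at -0.43 ± 0.08 (adjusted p = 0.0052), a call lost without the second low or the second high leucine array at 480 min. The weaker 212292_at, 215979_s_at and 206566_at were at -0.25 ± 0.11, -0.08 ± 0.09 and 0.10 ± 0.09 and were not called. Where on the transcript each probe set binds was not analysed here.

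SLC3A2, the shared heavy chain, gave 2879 and 3169 in low leucine at 480 min and 2039 and 2553 in high leucine. All low leucine arrays lay above the high leucine ones, and the change was -0.40 ± 0.06 (blocked limma, adjusted p = 0.0009; unblocked ± 0.13, adjusted p = 0.41). Its light chains did not move alike in size. SLC7A11 was at -1.32 as above. SLC7A5, the leucine exchanger, gave 2138 and 4694 in low and 1359.6 and 4145 in high leucine at 480 min, with a change of -0.40 that had a blocked error of 0.21 and was not called (blocked limma, adjusted p = 0.36). SLC7A6, a light chain that exchanges cationic for neutral amino acids, gave 596 and 769 against 611 and 766, and its change of 0.02 ± 0.07 was not called (blocked limma, adjusted p = 0.93). The second tested SLC7A6 probe set was at -0.05 ± 0.06, and the third, which lay between 281 and 408, was below the filter.

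Among the sodium-coupled carriers, SLC38A1 and SLC1A4 were called. SLC38A1, a glutamine and small neutral amino acid carrier, gave 2773 and 3128 in low and 2330.3 and 2026 in high leucine at 480 min, a change of -0.43 ± 0.09 (blocked limma, adjusted p = 0.017; unblocked 0.14). SLC1A4, which exchanges alanine, serine and cysteine, gave 840.2 and 861 against 644 and 712, a change of -0.26 ± 0.06 (blocked limma, adjusted p = 0.024; unblocked 0.15). Of its 4 probe sets 212810_s_at was called as well, at -0.25 ± 0.06, and 209610_s_at at -0.21 ± 0.07 and 209611_s_at at -0.02 ± 0.05 were not. The SLC38A1 call was lost without either low leucine array at 480 min or without the second high leucine array there, where its adjusted p was 0.25. The SLC1A4 lead lost its call without any 1 of the 4 arrays at 480 min. The call of 212810_s_at was lost without either low leucine array at 480 min or without the second high leucine array there.

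The remaining 3 genes were not called at 480 min either. SLC1A5, the glutamine exchanger ASCT2, gave 1746 and 2409 in low and 1554 and 1968 in high leucine, lower in high leucine within each experiment but overlapping between them. Its change was -0.22 ± 0.06 (blocked limma, adjusted p = 0.061). SLC38A2, the inducible neutral amino acid carrier SNAT2, gave 4976 and 4217 against 4502 and 4024, with changes of -0.11 ± 0.07 and -0.05 ± 0.08 for its 2 probe sets. SLC6A9, the glycine transporter GlyT1, gave 569 and 650.1 against 528 and 606, a change of -0.07 ± 0.08.

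**Figure D2:**
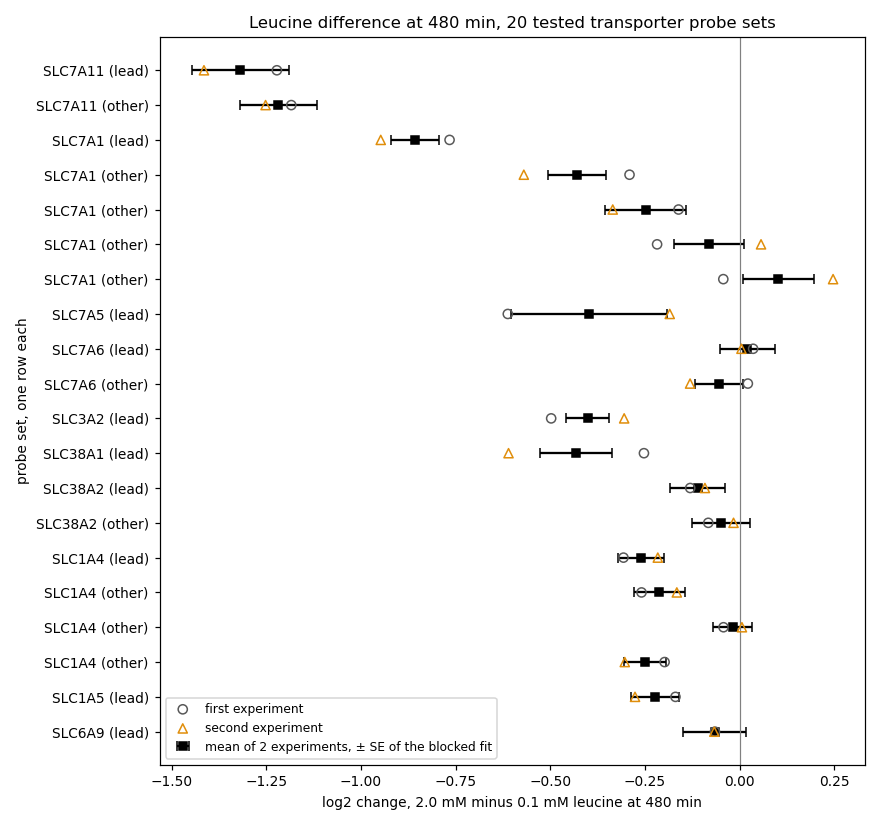
Log2 change between 2.0 mM and 0.1 mM leucine at 480 min for the 20 tested probe sets, 1 row each, with the mean and its blocked standard error as a square and bar and the value of each experiment as an open symbol. SLC7A11 lies near -1.32 and -1.22, the SLC7A1 lead at -0.86, and the rows of SLC7A6, SLC38A2 and SLC6A9 lie close to 0.

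The promoters of these genes were searched for the core of the C/EBP-ATF response element, TGATGNAA on either strand, a sequence through which ATF4 dimers are known to act. Windows ran from 250 bases before to 50 bases after each RefSeq start in GRCh38.p14. RefSeq promoters were at hand for 9 of the 10 genes, all but SLC7A11, in 15 windows. The core occurred in 5 windows of 5 genes. Over all 35116 windows 3.62% held it, and 4.46% of 27305 genes had it in at least 1 window. Among genes with several windows, such as SLC1A4, SLC1A5, SLC3A2 and SLC38A1, that share was 7.03%. The members include known ATF4 targets and were chosen with earlier results of these data known, so their share is not independent of that choice. All 5 matches are shown, that of SLC1A5 among them, which was not called at 480 min. Each is given as 30 bases in the direction of the gene, with the 8 matching bases in capitals. The match of SLC1A4 and that of SLC3A2 read as the reverse complement of the core.
SLC7A1: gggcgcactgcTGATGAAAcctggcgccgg
SLC3A2: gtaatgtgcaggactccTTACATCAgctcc
SLC38A1: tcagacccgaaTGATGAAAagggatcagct
SLC1A4: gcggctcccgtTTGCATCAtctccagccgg
SLC1A5: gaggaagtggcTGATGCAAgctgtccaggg

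The SLC7A1 stretch is at chr13:29595663-29595692 on the minus strand, and its match begins 8 bases into the transcript. That of SLC3A2 is at chr11:62881719-62881748 on the plus strand, with the match beginning 38 bases into the transcript that starts there. The SLC38A1 stretch (chr12:46266502-46266531, minus strand) and the SLC1A4 stretch (chr2:64989381-64989410, plus strand) hold matches that span the start site. The SLC1A5 match (chr19:46784893-46784922, minus strand) begins 97 bases before the most downstream of its 3 listed starts. No window of SLC7A5, SLC7A6, SLC38A2 or SLC6A9 held these letters, which says only that the core is not in those windows. ATF4 mRNA itself gave 5281 and 4846 in low and 2613 and 2188 in high leucine at 480 min, a change of -1.05 ± 0.13 (unblocked limma, adjusted p = 0.016). At 120 min it gave 4980 and 5565 in low and 3532 and 3072 in high leucine. Low leucine lay wholly above high leucine there for 10.5% of all probe sets. At 60 min ATF4 mRNA gave 5180 and 5029 against 4518 and 4199, and 0% of all probe sets were called in either fit. Whether ATF4 mRNA changed before the carriers was not tested. ATF4 protein was not measured. A match is a sequence description, and binding was not measured.

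Before 480 min no carrier probe set was called between leucine levels in either fit. At 120 min limma called 0 of 20 unblocked and 0 blocked, where 0.0075% and 0.03% of all probe sets were called. An unadjusted p under 0.05 was found for 0 and 7 members, and for 137 and 601 of all 13329 probe sets. SLC38A2 had the largest differences there among the leads other than SLC7A11. It gave 4104 and 4189.6 in low and 3083 and 3254 in high leucine, without overlap, a change of -0.31 ± 0.07 (blocked limma, adjusted p = 0.6). Its second probe set gave 4191 and 4324 against 3209 and 3220.4, a change of -0.34 ± 0.08. SLC3A2 gave 2761 and 3213 against 2253 and 2677, also without overlap, and was at -0.20 ± 0.06. At 120 min 3 of 20 probe sets had low leucine wholly above high leucine, and 10.5% of all probe sets did. The reverse held for 0 of 20 and for 3.05% of all.

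SLC7A11 stood at -0.33 ± 0.13 at 120 min, with 767 and 1054 in low and 555 and 803 in high leucine, so that the groups overlapped between experiments though low exceeded high within each. SLC7A1 was at -0.16 ± 0.06 and SLC7A5 at 0.24 ± 0.21, with -0.03 in the first and 0.51 in the second experiment. At 60 and at 30 min both limma fits called 0 of 20 and 0% of all probe sets. The unadjusted p was under 0.05 for 0 members unblocked and 1 blocked at 60 min, and for 0 and 0 at 30 min. Over all probe sets it was so for 102 and 419 at 60 min and for 154 and 593 at 30 min. At 0 min both limma fits called 0 of 20, and the blocked fit called 0.578% of all probe sets. Unadjusted p under 0.05 was found there for 0 and 1 members, and for 862 and 2266 of all probe sets. The lead changes at these 3 times ran from -0.19 (SLC38A2 at 60 min) to 0.17 (SLC1A5 at 0 min).

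Averaged over the 5 times, the blocked fit called 3 of 20 probe sets, all lower in high leucine, where 0.173% of all probe sets were called and 0.15% were called lower. These were the lead of SLC7A11 at -0.34 ± 0.06, its probe set 217678_at at -0.32 ± 0.05 and the lead of SLC7A1 at -0.22 ± 0.03. Without the block limma called 0, and 7 had an unadjusted p under 0.05, as had 309 of all 13329 probe sets. The call of the SLC7A11 lead was lost on leaving out any of 11 of the 20 arrays.

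**Figure D3:**
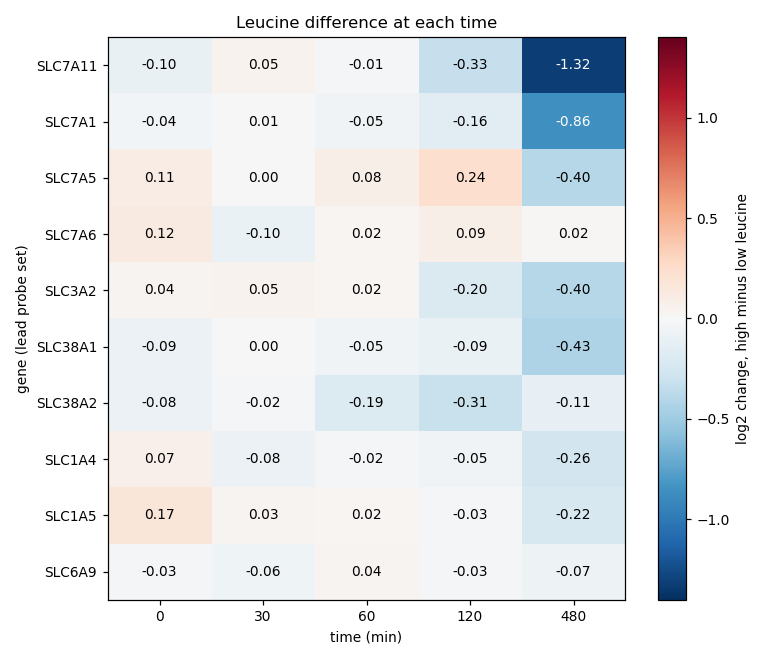
Log2 change between high and low leucine at each of the 5 times for the lead probe set of each gene, printed in each cell and shown by colour from -1.4 to 1.4. Values down to -1.32 appear at 480 min, while SLC38A2 is lower at 120 min (-0.31) than at 480 min (-0.11).

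The change from 0 to 480 min was then taken within each leucine level. These comparisons share the 480 min arrays with the leucine difference above, so they are not independent of it. In high leucine the blocked fit called 10 of 20 probe sets, 9 lower and 1 higher, where it called 15.2% of all probe sets, 6.61% lower and 8.64% higher. The unblocked limma fit called 0 members and 1.72% of all probe sets. In it 10 members had an unadjusted p under 0.05, as had 1899 of all 13329 probe sets. In low leucine both limma fits called 0 of 20, and 0.233% of all probe sets were called in the blocked fit. There 2 members unblocked and 6 blocked had an unadjusted p under 0.05, as had 734 and 2066 of all probe sets. The difference between the 2 media in this change was called for 8 of 20 probe sets in the blocked fit, all lower in high leucine, where 3.82% of all probe sets were called and 1.13% were called lower. The unblocked limma fit called 0 of 20 there, with 9 below an unadjusted p of 0.05, as were 1038 of all 13329 probe sets. The lead medians were -0.21 in high and 0.12 in low leucine, against -0.02 and 0.00 over all probe sets.

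SLC7A11 had opposite signs in the 2 media. In high leucine it went from 657 and 919 at 0 min to 415 and 365 at 480 min and fell by 0.79 ± 0.13 (blocked limma, adjusted p = 0.00097). In low leucine it went from 695 and 1089.6 to 1217 and 1253, a change of 0.42 ± 0.13 that was not called (blocked limma, adjusted p = 0.13). The experiments differed here, with 0.69 in the first and 0.16 in the second. At 0 min the low leucine array of the second experiment lay well above that of the first, and at 480 min they were close together.

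SLC7A1 fell by 0.76 ± 0.06 in high leucine (blocked limma, adjusted p = 3.3e-06) and was at 0.06 ± 0.06 in low leucine. SLC3A2 fell by 0.38 ± 0.06 (adjusted p = 0.00057, blocked limma) against 0.07 ± 0.06, and SLC1A4 by 0.20 ± 0.06 (adjusted p = 0.034) against 0.13 ± 0.06. The SLC1A4 call was lost without the first high leucine array at 0 min (adjusted p = 0.28) and without either one at 480 min. SLC1A5, not called between leucine levels at 480 min, went from 1874 and 2228 to 1554 and 1968 in high leucine and fell by 0.30 ± 0.06 (blocked limma, adjusted p = 0.005). In low leucine SLC1A5 was at 0.08 ± 0.06. SLC38A1 was at -0.22 ± 0.09 in high leucine and was not called.

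Of the probe sets called in high leucine, 1 was higher at 480 min, a non-lead probe set of SLC38A2. This probe set, 220924_s_at, went from 3638 and 2894 to 4599 and 4127 in high leucine and rose by 0.30 ± 0.08 (blocked limma, adjusted p = 0.018), a call lost without the second high leucine array at 0 min (adjusted p = 0.16) and without either high leucine array at 480 min. In low leucine it went from 3824 and 3769.8 to 4918 and 4139, a change of 0.22 ± 0.08 that was not called. Averaged over both media it rose by 0.26 ± 0.05 (blocked limma, adjusted p = 0.0073), where 11% of all probe sets were called, 6.49% higher and 4.46% lower. The leads of SLC7A1 at -0.35 ± 0.04 and SLC3A2 at -0.15 ± 0.04 fell in the same average, and the SLC3A2 call was lost on leaving out any of 5 arrays. Unblocked, limma called 0 of 20 and 1.21% of all probe sets. In that fit 3 members had an unadjusted p under 0.05, as had 1621 of all 13329 probe sets. The lead SLC38A2 probe set was at 0.14 ± 0.05 in that average and was not called (adjusted p = 0.085). In high leucine both probe sets were lower at 120 min than at 60 min and higher again at 480 min in each experiment, a path that was not tested. Over both media, limma called 0 of 20 at 30, 60 or 120 min against 0 min in either fit. Unadjusted p under 0.05 was found for 1 member at each time unblocked and for 2, 1 and 3 blocked. Over all probe sets such a p was found for 545, 1159 and 902 unblocked and for 1787, 3181 and 2595 blocked. The blocked fit called 0.0075%, 2.54% and 0.893% of all probe sets at those times.

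**Figure D4:**
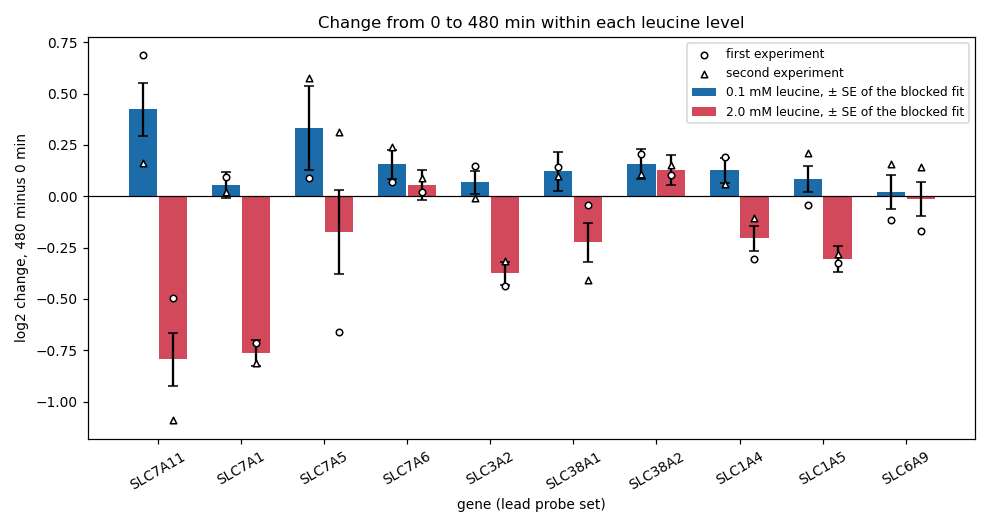
Log2 change from 0 to 480 min in 0.1 mM and 2.0 mM leucine for the lead probe set of each gene, as bars with the blocked standard error and 1 open symbol per experiment. SLC7A11 shows 0.42 in low and -0.79 in high leucine, while both bars of SLC38A2 lie above 0.

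The experiments were compared next, and the members' share of calls was close to that of all probe sets. Of 20 probe sets 12 differed between experiments in the blocked limma fit, 9 higher and 3 lower in the second, where 62% of all probe sets differed, 36.1% higher and 26% lower. The largest difference was that of SLC7A5, higher in the second experiment by 0.87 ± 0.09 (adjusted p = 7.3e-07). SLC7A1 was higher by 0.27 ± 0.03, SLC7A11 by 0.26 ± 0.06, SLC1A5 by 0.19 ± 0.03 and SLC3A2 by 0.19 ± 0.03. SLC38A2 was lower in the second experiment, at -0.19 ± 0.03 and -0.21 ± 0.03 for its probe sets. SLC7A1 probe sets ran in opposite directions, with 206566_at at -0.32 ± 0.04.

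SLC7A5 had a time course in the second experiment that the first did not show. In the second it gave 3041, 2964, 3905, 4556 and 4694 at 0, 30, 60, 120 and 480 min in low leucine and 3001, 3031, 4338, 6190.3 and 4145 in high leucine. In the first it gave 1969, 1840.1, 1935, 2026 and 2138 in low and 2107, 1904, 2037, 1966 and 1359.6 in high leucine. In the second experiment both media were above their 0 min value from 60 min on, in the first no value but low leucine at 120 and 480 min was, and the lowest of the 20 values was the first high leucine array at 480 min. A fit with experiment-by-time terms was chosen after seeing the data and had 5 residual degrees of freedom. Its changes are means of both media. From 0 to 120 min the change was -0.06 in the first and 0.67 in the second experiment. The difference of 0.73 ± 0.16 was called (limma, adjusted p = 0.037), where 1.33% of all probe sets were. At 60 min the difference was 0.35 ± 0.16 and was not called (adjusted p = 0.29). At 60 min 1.75% of all probe sets were called and at 30 min 0.09%. At 480 min, where 2.54% of all probe sets were called, SLC7A5 differed by 0.73 ± 0.16 (limma, adjusted p = 0.031). For SLC7A11 the mean change of both media was 0.10 in the first and -0.47 in the second experiment. That was a difference of -0.56 ± 0.10 (limma, adjusted p = 0.011). In both experiments SLC7A11 rose in low and fell in high leucine, so these means join changes of opposite sign.

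A further 50 amino acid carrier genes, plasma membrane and organellar, were listed beside the members, also with earlier results of these data known. Of these 35 were on the array and 22 passed the filter. At 480 min the blocked limma fit called 1 of 22 higher and 1 lower in high leucine, and the unblocked fit called 0, where 4.09% and 0.27% of all probe sets were called. The median was -0.04. SLC25A38, the mitochondrial glycine carrier, was lower by 0.26 ± 0.06 (a change of -0.26, blocked limma adjusted p = 0.028), and SLC25A44, a mitochondrial carrier of branched-chain amino acids, was higher by 0.28 ± 0.05 (adjusted p = 0.0068). From 0 to 480 min in high leucine SLC25A44 rose by 0.30 ± 0.06 (unblocked limma, adjusted p = 0.039), the 1 carrier outside the members called without the block, and SLC25A38 at -0.35 ± 0.06 and SLC1A7 at -0.30 ± 0.08 fell in the blocked fit. That is 1 higher and 2 lower of 22 in the blocked fit, a share close to the 15.2% of all probe sets called there. At 120 min and in low leucine 0 of 22 were called in either limma fit.

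The profiles most like each called member were found among 8280 genes by the root mean square difference of log2 values over the 20 arrays, each array set against the mean of its experiment. For SLC7A11 the nearest were STC2, a secreted glycoprotein, at 0.135, GFPT1, the first enzyme of hexosamine synthesis, at 0.147, SLC7A1 at 0.158, and the endoplasmic reticulum stress genes HERPUD1 at 0.166 and XBP1 at 0.169. The median over all genes was 0.34, and a flat profile would lie at 0.333. For SLC7A1 they were the cysteine tRNA synthetase CARS1 at 0.0752, the glycine tRNA synthetase GARS1 at 0.0856, GFPT1 at 0.086, HERPUD1 at 0.0898 and the serine tRNA synthetase SARS1 at 0.0934, with a median of 0.245 over all genes. For SLC3A2 the nearest were GATAD1, WDR74, CSNK2A2, CAMLG and GRB10, from 0.0663 to 0.0712 against a median of 0.138. For SLC38A1 they were UFM1, DDX21, SNHG32, TES and TNFRSF10B, from 0.065 to 0.0883 against 0.154, and for SLC1A4 they were WWP2, ZNF532, SYNRG, CNTNAP1 and LINC00574, from 0.0474 to 0.0544 against 0.106. A flat profile would lie at 0.236 from SLC7A1, 0.118 from SLC3A2, 0.137 from SLC38A1 and 0.0765 from SLC1A4, in each case below the median over all genes. No other member was among the 5 nearest of SLC7A1, SLC3A2, SLC38A1 or SLC1A4.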

How the data were processed

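RNA of 20 samples of THLE-3 cells was read on 1-colour Affymetrix arrays. The deposited values were linear intensity values of 22215 probe sets, and the sources used here do not give how the authors summarised and scaled them. They ran from 0 to 26173, with 16 exact zeros. Of the probe sets 19065 carried 1 gene symbol in the platform annotation, 1043 several and 2107 none.

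From these, log2(value + 165.2) was computed, where the constant is the 10th percentile of an array (median of the 20), followed by quantile normalization. A probe set was kept if its mean reached the 40th percentile. The comparisons were fitted with limma 3.58.1 in R 4.3.3, with moderated variances and an intensity trend, two-sided, with 10 residual degrees of freedom unblocked and 9 blocked. The experiment comes from the labels, and deviations from the group means correlated between arrays of 1 experiment at 0.81 to 0.93 in all 45 pairs of groups, so the experiment was used as a block. Named were all member probe sets, ATF4, listed further carriers that were called, and the 5 nearest profiles of called members. The members and lists were chosen with earlier results of these data known. The fits were tested on simulated data. Alternatives were a constant 4 times larger or smaller, no or median normalization, no filter, a filter at the 60th percentile, no trend, array weights, and leaving out each array.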

Additional observations from a re-analysis of the deposited data

Results flagged for a closer look

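The leucine difference at 480 min minus that at 0 min, which tests whether high and low leucine changed differently, was called for 8 of 20 carrier probe sets in the blocked limma fit, all downward, where 3.82% of all probe sets were called. The values were -1.22 (adjusted p = 0.0029) and -1.07 (0.0015) for the 2 probe sets of SLC7A11, -0.82 (0.00022) and -0.58 (0.0098) for SLC7A1 212295_s_at and 212290_at, and -0.44 (0.0085) for SLC3A2. SLC1A5 stood at -0.39 (adjusted p = 0.026, limma), and the SLC1A4 probe sets at -0.33 (0.044) and -0.31 (0.04). Part of the SLC1A5 value came from 0 min, where high leucine gave 1874 and 2228 and low leucine 1772 and 2023. SLC7A1 212290_at likewise gave 781 and 859 in high and 754 and 750.1 in low leucine at 0 min. Both SLC7A11 probe sets had low leucine above high leucine at 0 min in each experiment. Without the block limma called 0, and 9 had an unadjusted p under 0.05, as had 1038 of all 13329 probe sets. For SLC38A1 at -0.35 and SLC7A1 215979_s_at at -0.12, both low leucine values were higher and both high leucine values lower at 480 than at 0 min after normalization, and the test gave no call (blocked limma, adjusted p = 0.16 and 0.64). On the deposited scale the first high leucine array of SLC38A1 went from 2268 to 2330.3 and the second of SLC7A1 215979_s_at from 528.8 to 532.7, so neither kept the opposite directions there. The SLC1A4 calls were lost on leaving out 17 and 13 of the 20 arrays in turn, and that of SLC1A5 on leaving out 5.

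The 2 experiments differed in the change from 0 min for SLC7A5 and SLC7A11, in a limma fit with experiment-by-time terms chosen after seeing the data. For SLC7A5 the second experiment changed more than the first by 0.73 at 120 min (adjusted p = 0.037) and by 0.73 at 480 min (adjusted p = 0.031). The mean of both media at 480 min was -0.28 in the first and 0.44 in the second experiment. For SLC7A11 the difference at 480 min was -0.56 (limma, adjusted p = 0.011) and, for 217678_at, -0.44 (adjusted p = 0.027). The lead's mean change of both media was 0.10 in the first and -0.47 in the second experiment. In each experiment it rose in low and fell in high leucine. At 480 min 2.54% of all probe sets were called in that fit.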

How the results depend on the processing

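Of the 20 member probe sets, the count called between leucine levels at 480 min was 2 in the unblocked fit, 1 on values as deposited, 1 without a filter and 1 with array weights, and leaving out 1 array gave 0 to 2. The probe set kept on values as deposited, without a filter and with array weights was SLC7A11 217678_at. With the replicate block it was 8, and leaving out 1 array of that fit gave 4 to 8. The 4 came on omitting the low leucine array of the second experiment at 480 min. Averaged over the times the count was 0 and, with the replicate block, 3. From 0 to 480 min in high leucine it was 0, but 1 with a smaller constant, 1 with median centring, 1 with the filter at the 60th percentile, 0 to 1 on leaving out 1 array, and 10 with the replicate block, where leaving out 1 array gave 5 to 10. The 5 came without the second high leucine array at 480 min. In low leucine the blocked count was 0, and 0 to 1 on leaving out 1 array. For the change of the leucine difference it was 0 and, with the replicate block, 8, with 4 to 8 on leaving out 1 array. The 4 came on omitting the low leucine array of the second experiment at 0 min. For 480 against 0 min over both media it was 0 and, with the replicate block, 3. At 0, 30, 60 and 120 min the counts stayed at 0 in all alternatives run. The count between experiments was 12, and 10 to 12 on leaving out 1 array, 16 on values as deposited, 14 without a filter, 9 with the filter at the 60th percentile and 13 with array weights. No called change of a member turned its sign in these alternatives or within either experiment. Where leaving out an array left a group with 1, that array was assumed to vary like the others. Counts within 1 experiment have no test. Whether low signal limited any member was not tested, and 2 probe sets below the filter have no test. The cause of these differences was not tested.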
